A study of Mesocricetus auratus and Mus musculus with 214 samples.

Results

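Oocytes at the germinal vesicle (GV) stage from Piwil3-/- golden hamsters were compared with GV oocytes from wild-type (WT) golden hamsters by mRNA-seq. The comparison used 6 of the 214 samples in the series, 3 WT libraries (numbered 1, 3 and 4) and 3 Piwil3-/- libraries (numbered 2, 4 and 5), chosen by genotype and stage as the labels give them. GV oocytes are fully grown oocytes still arrested in the first meiotic prophase, and the study took them from ovaries. The Piwil3-/- animals were homozygous for a single CRISPR-Cas9 deletion in exon 6 of Piwil3 that shifts the reading frame, in a line backcrossed before homozygotes were bred, so the genotype rests on 1 allele. WT animals carried no induced mutation, no sample was treated, and the ages of the donors of these oocytes are not given in the sources used here. Spike-in RNA (ERCC) was added for every single oocyte, and a value is the number of fragments counted on a gene, divided by its length in kilobases and scaled to 10000 ERCC reads in the library. The labels do not say that libraries of a group came from separate females, so p-values measure the spread between these libraries, which may be technical.

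PIWI proteins are Argonaute proteins that bind piRNAs, small RNAs of the germ line, and in that form recognise transposon and gene transcripts. Golden hamsters, like most mammals, have Piwil3 as a PIWI gene active in oocytes, whereas mice have lost it. A fully grown GV oocyte has nearly ceased transcription and carries a stock of maternal mRNA that is used and cleared during maturation and the first cleavages.

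The oligos that made the mutation define the genotype compared here. Guides sg1 and sg2 were both directed at exon 6 of Piwil3 (NCBI gene 101844316), and each was cloned from a forward oligo whose 4 leading bases (lower case) are a cloning overhang and whose 19 capitals are the spacer, 5′ to 3′.
sg1: taggGCAAGTGCCATATTTTCGA
sg2: taggTCTGAGCAGTAAATTAGTG
In both, the spacer was the exact reverse complement of the spacer in the paired reverse oligo.

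Piwil3 itself was measured at 53.3, 54.1 and 43.6 in the WT libraries and at 15.8, 16.8 and 17.1 in the Piwil3-/- libraries. Every mutant library lay below every WT library, and the mutant libraries were within a narrow band of each other. Piwil3 was at 16.6 ± 0.721 (SD, n = 3) in Piwil3-/- oocytes, 32.9% of the 50.4 ± 5.85 (SD, n = 3) in WT. The log2 difference was -1.54 (SE 0.24; limma adjusted p = 0.0459 over all genes), and the exact permutation test over the libraries (two-sided) gave p = 0.1, the smallest that 3 against 3 allows. The transcript was thus still counted in every mutant library, and a value per gene does not show which exons the reads came from. The limma call did not hold when any single library was left out (adjusted p between 0.121 and 0.216), although the log2 difference stayed between -1.64 and -1.49.

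The other PIWI genes did not pass. Piwil1, the PIWI gene with the highest level here, was at 136, 130 and 111 in WT and at 112, 124 and 107 in Piwil3-/- oocytes, and the groups overlapped (log2 difference -0.13, SE 0.16; limma adjusted p = 0.885). Piwil4 was at 51.3, 52.9 and 44.04 in WT and at 29.9, 45.4 and 50.3 in mutants. Piwil2 was under 12 in every library. Of the 4 PIWI genes, the disrupted gene was thus the 1 that passed.

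All 6 libraries carried an oocyte transcriptome. The total of all values, which is scaled to ERCC reads, was 2421960 to 2714380 in WT and 2519660 to 2604390 in mutant libraries. The mutant mean was 1.53% lower than WT, and an exact permutation test (two-sided) gave p = 0.7. Between 15632 and 16169 genes were above 0 in a library. The log2 values of library pairs correlated at 0.972 to 0.973 within a genotype (6 pairs) and at 0.969 to 0.970 between genotypes (9 pairs). From the steps between low values of short genes, 1 read in a gene of 1 kb was worth 0.894 to 1.23 in these libraries, so a value near 1 rests on very few reads. None of the 21 oocyte markers in the table passed, where 0.207% of all genes tested did. Zp3, a zona pellucida glycoprotein, was at 5209 to 9017 in WT and 7690.5 to 8570 in mutants. Gdf9, a growth factor the oocyte secretes, was at 8599.9 to 13380 in WT and 12146 to 14398 in mutants. WT library 4 was the lowest of the 6 for Zp1, Zp3, Zp4 and Gdf9.

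Markers of stroma, theca and blood cells had low or 0 values in both genotypes, while those of granulosa and cumulus cells were mixed. A listed 0 need not mean that a gene is silent, since the mitochondrial gene ATP8 was also listed at 0 in all 6 libraries. The 19 granulosa and cumulus markers in the table summed to 472 to 560.1 in WT and 399 to 555 in mutant libraries, most of it from Serpine2, Amhr2 and Nr5a2. Amhr2, the receptor of anti-Müllerian hormone, was at 111, 158 and 81.6 in WT and at 56.4, 52.4 and 54.9 in mutants, without overlap and without passing (limma adjusted p = 0.208). Serpine2 was at 197 to 234 in WT and 170 to 259 in mutants. Of the 19 markers, 8 had values high enough to be tested and 5 were listed at 0 in all 6 libraries, Fshr, Lhcgr, Ptx3 and Grem1 among them. The 10 markers of stroma, theca and blood cells in the table summed to 8.37 to 11.4 in WT and 8.46 to 12.1 in mutants. Col1a1, Col3a1, Dcn and Ptprc were listed at 0 throughout.

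Few single genes differed between the genotypes. Of 13534 genes tested with values as deposited, 28 (0.207%) changed at an adjusted p under 0.05, of which 16 (0.118%) were higher and 12 (0.0887%) lower in Piwil3-/- oocytes. Of these, 11 (0.0813%) also passed a 4-fold difference and an adjusted p under 0.01 in limma, and are named called genes here. The study set these limits on a permutation test instead, so the 11 are not calls by its own criterion. For GV oocytes the study itself reported no significant gene expression difference between the genotypes. An exact permutation test over 3 against 3 libraries cannot give p under 0.1, and the study does not say how its test was permuted. Its result therefore cannot be set beside the 11 calls. With the 6 libraries set to equal totals, 35 of 13542 genes changed (0.258%), 20 higher (0.148%) and 15 lower (0.111%). All 28 were among them, and the same 11 genes were called (0.0812%). The median log2 difference of all genes tested was -0.01 as deposited and 0.01 with equal totals. Unadjusted p was under 0.05 for 1220 genes (9.01%) as deposited and 1261 (9.31%) with equal totals. The number called was 0 without mutant library 2 or 4 and 4 to 5 without any other library, while 23, 15 and 14 to 23 genes, respectively, were under an adjusted p of 0.05. All mutant libraries lay above all WT libraries for 6.97% of the genes tested as deposited and below them for 6.79%.

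**Figure D1:**
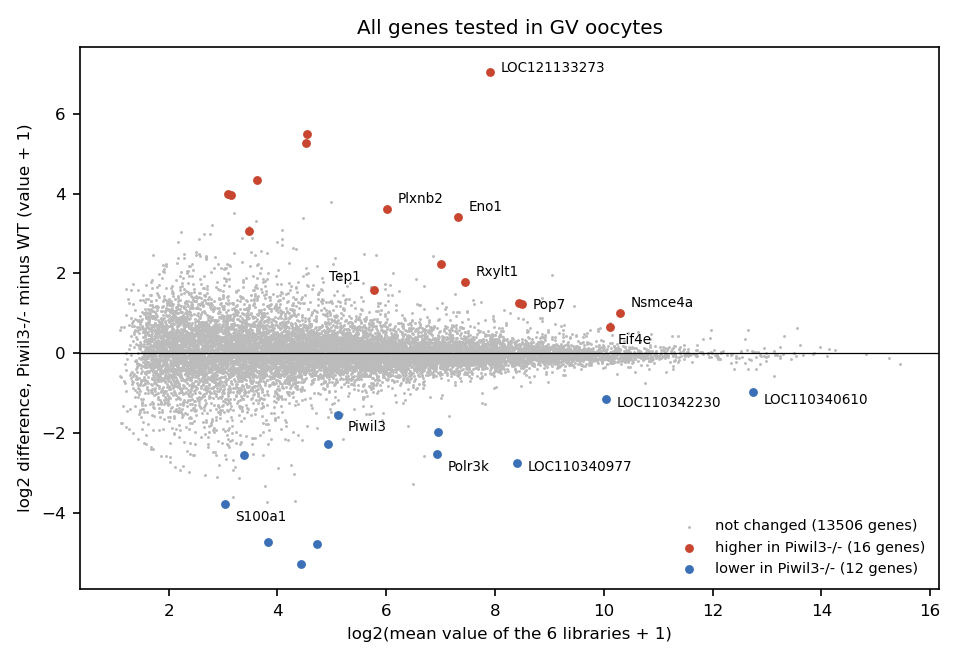
Log2 difference between Piwil3-/- and WT GV oocytes (vertical axis, on value + 1) against the log2 of the mean value of the 6 libraries (horizontal axis), for all 13534 genes tested, with the 16 genes higher in mutants in red, the 12 lower in blue and the rest in grey. The changed genes lie outside a cloud that narrows as the level rises.

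The precision of these differences depended strongly on the level. For 3863 genes with a mean value under 10, the median half-width of the 95% interval of the log2 difference was 1.33, and 4 of them changed. For 5959 genes between 10 and 100 it was 0.69, with 11 changed, and for 3246 genes between 100 and 1000 it was 0.36, with 9 changed. For 466 genes over 1000 it was 0.25, with 4 changed. A doubling was therefore within the typical interval of a gene under 10, and a gene that did not pass at that level is not shown to be equal in the genotypes.

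Among the changed genes with a gene name, Plxnb2, which encodes a plexin that serves as a receptor for class 4 semaphorins, had the largest rise with values as deposited. Plxnb2 (NCBI gene 101834166) was at 7.39, 8.51 and 10.3 in WT libraries and at 114, 136 and 104 in Piwil3-/- libraries. All 3 mutant libraries were about an order of magnitude above all WT libraries. The mean rose 13.6-fold, from 8.72 ± 1.45 to 118 ± 16.4 (SD, n = 3 each; log2 difference 3.62, SE 0.24; limma adjusted p = 9.4e-04). Of the 10 plexin and semaphorin genes tested, Plxnb2 was the 1 that changed, where 0.207% of all genes tested did. The median log2 difference of the 10 was 0.17, beside -0.01 for all genes tested. Sema4d, a class 4 semaphorin and the most abundant member, did not change.

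Eno1, the glycolytic enzyme enolase, was the other named gene with a rise over 4-fold among those changed as deposited. Eno1 (NCBI gene 101829906) was at 14.9, 38.8 and 31.9 in WT and at 273, 298 and 303 in mutant libraries. The groups were far apart, and the mutant libraries lay close together. The mean rose 10.2-fold (log2 difference 3.41, SE 0.31; limma adjusted p = 0.00295). No other gene of the glycolysis and pyruvate list passed, which says little where so few of all genes did. Of 22 glycolysis and pyruvate genes tested, Eno1 was the 1 higher and 0 were lower, where 0.118% and 0.0887% of all genes tested were. In 2 of the 22, Eno1 among them, all mutant libraries lay above all WT libraries, and in 3 they lay below. For all genes tested these shares were 6.97% and 6.79%. The median log2 difference of the list was -0.13. Aldoa, which encodes aldolase, was at 280.2, 202 and 206 in WT and at 127, 150.1 and 144 in mutants (log2 difference -0.69; limma adjusted p = 0.227), so its values were lower without passing.

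Polr3k, a small subunit of RNA polymerase III, was the 1 called gene with a name that fell. Polr3k (NCBI gene 101832197) was at 253, 164 and 199.7 in WT and at 31.6, 23.9 and 52.8 in Piwil3-/- libraries. The highest mutant value was well below the lowest WT value. The mean fell to 17.6% of WT (log2 difference -2.53, SE 0.29; limma adjusted p = 0.00974), and the adjusted p rose to 0.0855 with no trend in the prior. Of 28 RNA polymerase III genes tested it was the 1 that changed, where 0.207% of all genes tested did. The median log2 difference of the list was -0.06. Maf1, a repressor of this polymerase and the most abundant member of the list, did not pass.

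**Figure D2:**
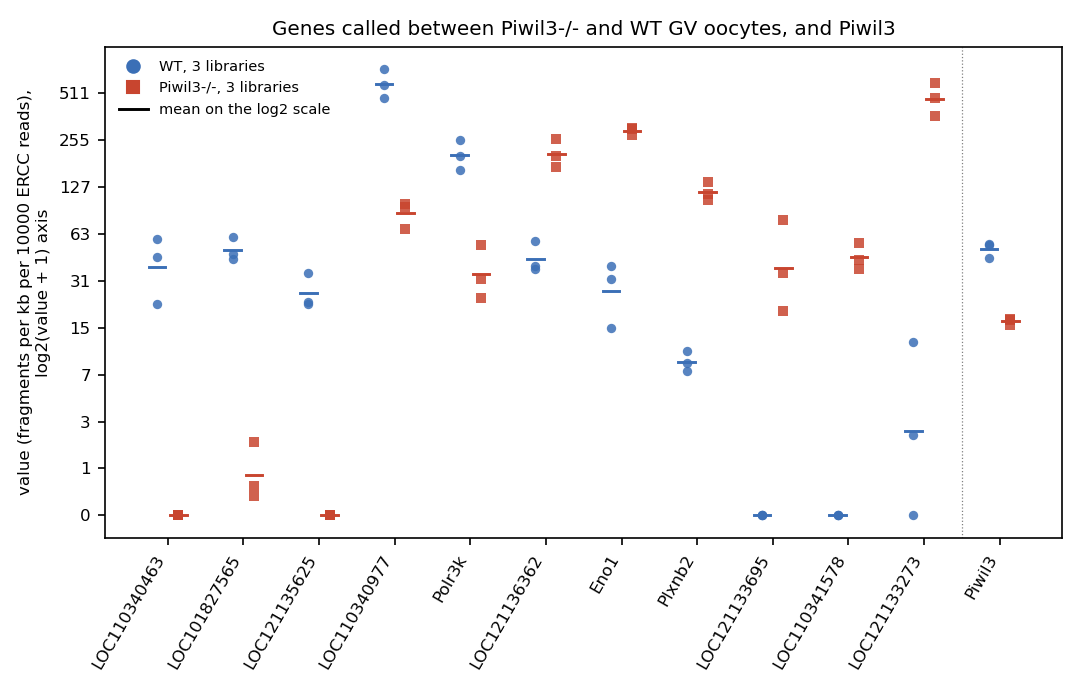
Values of the 11 called genes, ordered by log2 difference, and of Piwil3 (right of the dotted line) in each GV library, on a log2(value + 1) axis, with WT as blue circles, Piwil3-/- as red squares and the mean of each group on the log2 scale as a bar. In every gene shown the WT and Piwil3-/- libraries do not overlap.

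Of the 11 called genes, 8 had no gene name in the annotation and are given by their symbol, which holds the NCBI gene number. LOC121133273, annotated as protein coding, was at 2.29, 0 and 12.01 in WT and at 471, 361 and 595 in mutants, the largest log2 difference of the genes tested (7.06, SE 0.74; limma adjusted p = 0.00492). LOC121136362, also protein coding, was at 38.9, 56.4 and 36.99 in WT and at 201, 169.8 and 260.3 in mutants (adjusted p = 0.00487). LOC110340977, a lncRNA gene, was at 577, 472 and 726 in WT and at 99.0, 67.5 and 94.1 in mutants, a fall to 14.7% of WT (log2 difference -2.75, SE 0.20; adjusted p = 9.4e-04). In each of these the groups lay apart, and the WT values of LOC121133273, 1 of them 0, rest on few reads.

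Other called genes were present in 1 genotype and listed at or near 0 in the other. LOC110341578, a lncRNA gene, had no value above 0 in WT and was at 54.6, 37.1 and 42.4 in mutants (limma adjusted p = 9.4e-04). LOC121133695, also a lncRNA gene, showed the same pattern, with 0 in WT and 35.1, 77.1 and 19.4 in mutants (adjusted p = 0.00487). The converse held for LOC110340463, at 44.5, 21.9 and 57.9 in WT, and LOC121135625, at 21.8, 34.9 and 22.4 in WT, both lncRNA genes listed at 0 in every mutant library (adjusted p = 0.00295 and 0.00395). LOC101827565, a protein-coding gene, was at 42.99, 46.4 and 60.4 in WT and at 0.333, 0.543 and 1.97 in mutants, which is within the range of a few reads.

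Among all genes tested, 8 were listed at 0 in every WT library and above 2 in every mutant library, of which 5 changed, and 21 showed the reverse, of which 3 changed. Of all genes tested, 0.207% changed. These genes were picked for a 0 in 1 group and passed the filter on low values through the other group alone. Their difference was thus partly set by this choice, and the counts add no evidence. The same holds for the called genes listed at 0 in a genotype. The 5 were LOC110341578, LOC121133695, LOC121136468, LOC121135767 and LOC110341579, and the 3 were LOC110340463, LOC121135625 and S100a1. S100a1, which encodes a calcium-binding protein, was at 6.34, 15.6 and 21.1 in WT and listed at 0 in every mutant library (limma adjusted p = 0.0459, and 0.0565 to 0.226 with any 1 library left out). The other 4 S100 genes tested did not pass, S100a16 being the most abundant. No fold is given for genes with a group at 0.

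Apart from these genes, 5 named genes rose by smaller factors. Pop7, a protein subunit of RNase P and RNase MRP, was at 185, 218 and 247 in WT and at 459, 485 and 568 in mutants, a 2.33-fold rise (log2 difference 1.22, SE 0.15; limma adjusted p = 0.0147). Tep1, a component of vault particles and of telomerase, was at 25.3, 27.2 and 26.8 in WT and at 87.2, 87.3 and 71.1 in mutants, a 3.10-fold rise (adjusted p = 0.0186). In both, all mutant libraries lay above all WT libraries and replicates were close to each other. Tep1 did not pass when any single library was left out (adjusted p between 0.0516 and 0.136), and Pop7 did not pass without WT library 3 or mutant library 4 or 5 (0.0701 to 0.0919).

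Rxylt1, an enzyme that builds the glycan of alpha-dystroglycan, was at 114, 80.0 and 49.7 in WT and at 240.3, 257 and 306 in Piwil3-/- libraries (3.29-fold; limma adjusted p = 0.0459). Nsmce4a, a subunit of the SMC5/6 complex that acts in DNA repair, was at 747, 923 and 849 in WT and at 1379, 1884 and 1808 in mutants (2.01-fold; adjusted p = 0.0306). Eif4e, the protein that binds the cap of mRNA for translation, was at 864, 864 and 841 in WT and at 1342, 1342 and 1358 in mutants, a 1.57-fold rise with little spread (log2 difference 0.65, SE 0.09; adjusted p = 0.0301). None of these 3 genes had overlapping groups. With 1 library left out, Eif4e never passed, Rxylt1 passed without WT library 1 alone and Nsmce4a without mutant library 2 alone, and with no trend in the prior the adjusted p was 0.228 for Rxylt1, 0.263 for Nsmce4a and 0.301 for Eif4e. Bcl3, a nuclear IkB protein, passed with equal totals alone (adjusted p = 0.0477, against 0.0591 as deposited) and was at 9.26, 0.758 and 2.35 in WT and at 35.8, 86.3 and 49.7 in mutants. Mdfi, an inhibitor of myogenic transcription factors, likewise passed with equal totals alone, at 2.02 to 4.33 in WT and 17.6 to 27.9 in mutants (adjusted p = 0.0479).

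Long noncoding RNA genes made up 13 of the 28 changed genes, 46.4%, and 16.8% of all genes tested (2274 of 13534). Of the 13, 6 were higher and 7 were lower in mutants. Besides those above, LOC110342230 was at 1582, 1249 and 1523 in WT and at 662, 778 and 532 in mutants (45.3% of WT; limma adjusted p = 0.0272). LOC110340506 was at 236, 167 and 186 in WT and at 40.2, 54.4 and 53.2 in mutants (25.1% of WT; adjusted p = 0.00487). LOC121138973 was nearly constant within each group, at 16.9, 16.9 and 17.1 in WT and at 2.31, 1.88 and 1.96 in mutants (12.1% of WT; adjusted p = 0.0447). These 3 genes were lower in every mutant library than in any WT library. LOC121137851 fell as well, to 19.5% of WT, while LOC121144031 and LOC110341253 rose, with groups that did not overlap. LOC110341253 overlaps Glis1 in the annotation, and since these libraries carry no strand, reads of overlapping genes cannot be told apart; Glis1 was at 18.3 to 22.6 in WT and 14.2 to 20.1 in mutants and did not pass.

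Some of the changed genes were neighbours in the BCM_Maur_2.0 annotation. LOC110341578 and LOC110341579, both listed at 0 in the WT libraries, start 29.3 kb from each other, and LOC110341579 was at 18.2, 20.7 and 8.05 in mutants (limma adjusted p = 0.0292). LOC121135767, listed at 0 in WT and at 22.5, 36.7 and 8.66 in mutants (adjusted p = 0.0278), starts 30.04 kb from the start of Eno1. LOC101844855, 115 kb from Eif4e, passed with equal totals (adjusted p = 0.0219), at 498, 481 and 428 in WT and 811, 746 and 746 in mutants. In each pair both genes moved in the same direction. Of 145 genes within 3 Mb of Piwil3, 76 were tested with limma and 0 changed, where 0.207% of all genes did, 33 of the 76 having a lower mean log2 value in mutants.

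The most abundant changed gene lay in a cluster of highly expressed genes between Tcl1a, a coactivator of Akt kinases, and Glrx5, which acts in iron-sulfur cluster assembly. LOC110340610 was at 9253, 9389 and 8664 in WT and at 5054, 4072 and 4922 in mutant libraries. The mutant libraries all lay far below the WT libraries, which were close to each other. Its mean fell to 51.4% of WT (log2 difference -0.96, SE 0.10; limma adjusted p = 0.00487), under the 4-fold limit for a call. With equal totals, LOC121139449 (1851 to 2401 in WT, 1167 to 1344 in mutants; adjusted p = 0.0167) and LOC110339651 (9791 to 11319 in WT, 6210 to 7814 in mutants; adjusted p = 0.0351) passed too, while as deposited they did not (0.0541 and 0.109).

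The interval between Tcl1a and Glrx5 was looked at as a whole after these values were seen, so its counts are a description. Of its 19 genes 18 were tested, and the log2 difference was below 0 in 12, with a median of -0.27. In 9 of the 18 every mutant library lay below every WT library, where 6.79% of all genes tested did. Together the 19 genes summed to 111876, 117947 and 105595 in WT and to 94420.4, 78063 and 93723 in mutants, which was 4.12% to 4.37% and 3.10% to 3.63% of the total. The groups did not overlap. LOC121139250, the gene with the highest level of the table, was at 45246 to 51494 in WT and 35266 to 43365 in mutants without passing (log2 difference -0.27; limma adjusted p = 0.415). The annotation gives none of the 19 genes a name. If copies share sequence, a read could map to several of them, and how such reads were counted cannot be seen from the values. Single values of the cluster are thus uncertain, and its genes may not be separate observations.

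**Figure D3:**
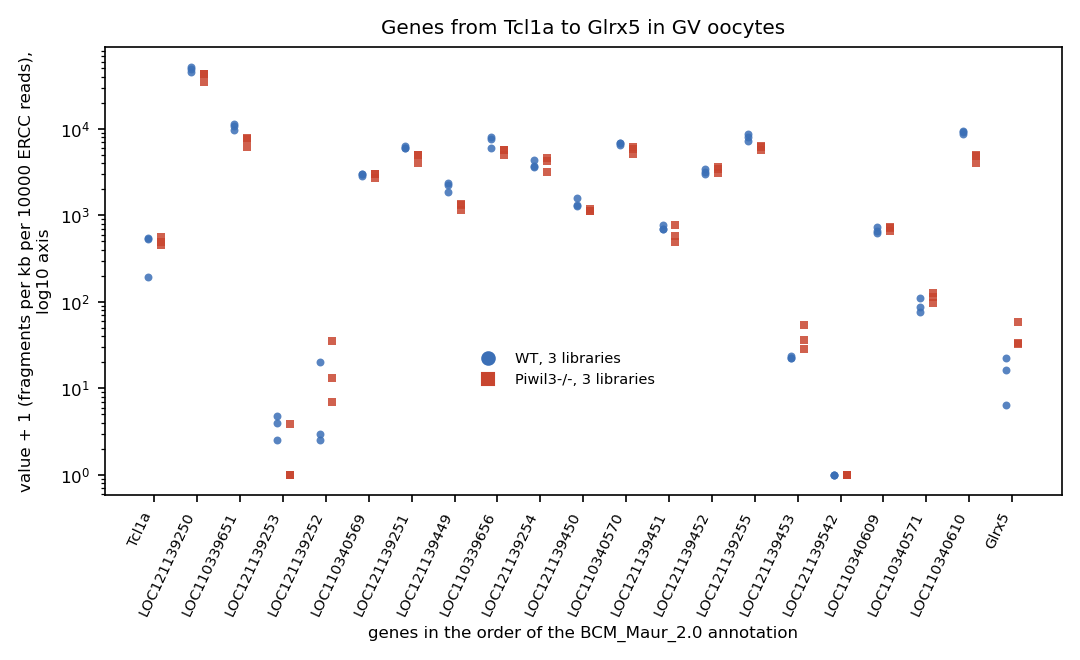
Value + 1 (log10 axis) in each GV library for the genes from Tcl1a to Glrx5 in annotation order, with WT as blue circles and Piwil3-/- as red squares. Several abundant genes are lower in all mutant libraries, LOC110340610 (next to Glrx5) among them, and others, such as LOC110340569 and LOC121139452, overlap.

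The mitochondrial genome's own genes had higher values in mutant than in WT oocytes, but none passed. Of the 13 protein genes of that genome, which encode subunits of the respiratory chain and ATP synthase, 11 were tested. All 11 had a log2 difference above 0, from 0.37 to 0.63, with a median of 0.53 beside -0.01 for all genes tested. Unadjusted p was under 0.05 for 9 of them, where it was for 9.01% of all genes tested, and the adjusted p ranged from 0.192 to 0.860. With equal totals the lowest adjusted p was 0.112. ND4 was at 3761, 3030.3 and 2835 in WT and at 4139, 4826 and 5352 in mutants, and ND1 at 12140, 8892 and 7566 in WT and at 13358, 13064 and 17253 in mutants. For these and ND5 the groups did not overlap, where 6.97% of all genes lay higher without overlap, and for the other 8 they did. The mitochondrial share of the total was 1.49%, 1.10% and 1.11% in WT and 1.67%, 1.65% and 2.11% in mutants, with WT library 1 closest to the mutants. The 11 genes come from the same polycistronic transcripts and are not independent. ATP8 was listed at 0 in all libraries and COX3 at 0 in 4 of 6.

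**Figure D4:**
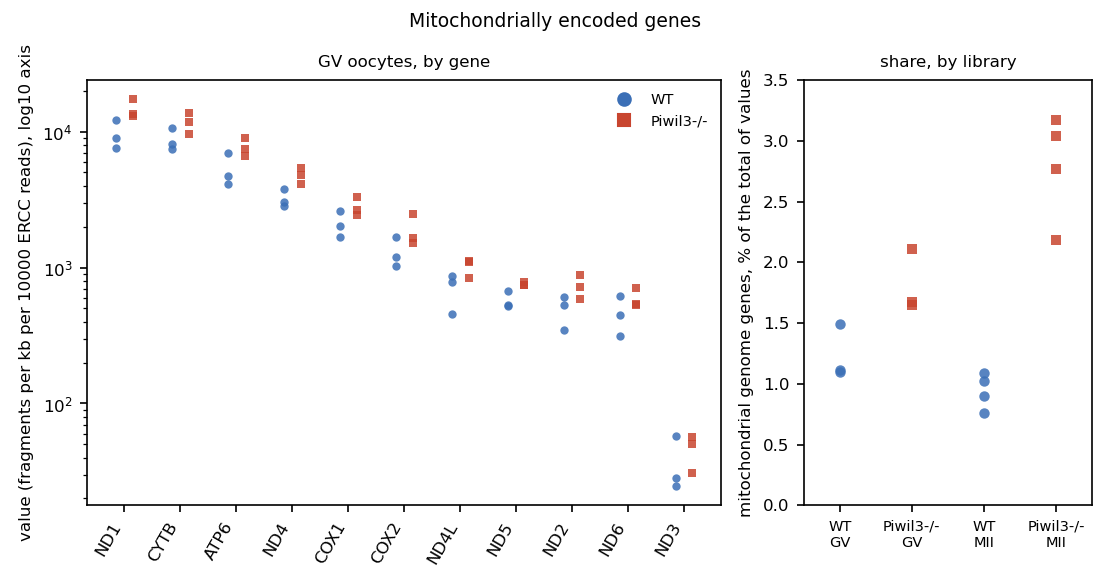
Left, values of the 11 mitochondrially encoded genes tested in each GV library (log10 axis), WT as blue circles and Piwil3-/- as red squares; right, their share of the total of all values in each GV and MII library (%). In GV oocytes the share is 1.10% to 1.49% in WT and 1.65% to 2.11% in mutants, and in MII oocytes 0.763% to 1.09% and 2.18% to 3.17%.

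Nuclear genes of mitochondria were looked at as well. None of 57 nuclear oxidative phosphorylation genes passed, where 0.207% of all genes did, and their median log2 difference was -0.08. None of 21 genes of the mitochondrial outer membrane and of fission and fusion passed, with a median of -0.03. Rhot1, which encodes the mitochondrial transport protein Miro1, came closest, at 175, 193 and 180.4 in WT and at 287, 367 and 310.2 in mutants (limma adjusted p = 0.0851), and was chosen after its values were seen.

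No gene of the piRNA biogenesis and Tudor list passed, and Piwil3 belongs to the separate PIWI family list. So few of all genes changed that counts of 0 say little about the genes of these lists. None of 21 piRNA biogenesis and Tudor genes passed, where 0.207% of all genes did (median log2 difference 0.02), and the same held for 11 miRNA pathway genes (0.13), 16 DNA methylation genes (0.01) and 12 genes of H3K9 methylation and HP1 (-0.05). Gtsf1, a piRNA partner protein and the most abundant member, was at 1577, 1346 and 1389 in WT and at 1319.6, 1267 and 1333 in mutants, without overlap and without passing (log2 difference -0.13; limma adjusted p = 0.799). Ddx4, the germ-cell helicase VASA, Tdrd1, a Tudor scaffold, and Mael had groups that overlapped. The values of Henmt1, the methylase of piRNA 3′ ends, were 269 to 344 in WT and 225 to 258 in mutants (log2 difference -0.27; limma adjusted p = 0.652). Pld6, the mitochondrial nuclease Zucchini of piRNA maturation, was at 419, 279 and 179 in WT and at 475, 508 and 450 in mutants, without overlap and without passing (0.79, adjusted p = 0.365).

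Genes of meiotic maturation and of the maternal stock did not pass either. None of 15 maternal effect genes (median log2 difference 0.08), 31 genes of meiotic arrest and M-phase (-0.07), 26 spindle checkpoint and kinetochore genes (-0.11) and 32 genes of maternal mRNA decay (0.03) changed. Of all genes tested 0.207% changed, so a count of 0 is near that share and says little about these genes. Ccnb1, cyclin B1 of M-phase kinase, was at 7501 to 9536 in WT and 6810.3 to 8947 in mutants, with overlap. Aurka, the kinase Aurora A, was at 7587, 8489 and 8584 in WT and at 6564, 7236 and 6712 in mutants, with groups that did not overlap but a log2 difference of only -0.26 (limma adjusted p = 0.357). Btg4, an adaptor of mRNA deadenylation, was at 5179 to 6573 in WT and 4628 to 5779 in mutants, and these overlapped.

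As deposited, where 0.207% of all genes tested changed, 0 genes changed in the remaining lists. These were 8 branched-chain amino acid genes (median log2 difference -0.23), 14 NF-kB pathway genes (0.03), 6 plasminogen system genes (-0.13), 13 Notch pathway genes (0.09), 12 genes of RNA sensing and interferon (0.16), 13 genes of p53, DNA damage and apoptosis (-0.02) and 24 stress response and chaperone genes (-0.05). Samhd1, an enzyme that degrades dNTPs, was at 723, 793 and 686 in WT and at 489.5, 588 and 440.2 in mutants, without overlap and without passing (-0.54; limma adjusted p = 0.226). Over all 26 lists, 5 of 429 members tested changed as deposited and 6 with equal totals, beside 0.207% and 0.258% of all genes. The 5 were Piwil3, Plxnb2, Eno1, Polr3k and S100a1. The lists were chosen with earlier results of these data known, and several were chosen around genes already seen to change, so these counts are no independent evidence.

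Oocytes at metaphase II (MII), the ovulated stage that follows, gave other libraries of the same genotypes, 4 WT and 4 Piwil3-/-. Of the 28 genes changed in GV oocytes, 13 passed the filter on low values in MII. The 15 others were under 10 in every MII library, Plxnb2, Pop7 and LOC121133273 among them, so their GV difference could not be followed. Of the 13, limma on the MII libraries alone found 4 changed in the same direction and 1 in the opposite direction, where 3.23% of the 7502 genes tested in MII changed as deposited and 4.03% of 7515 with equal totals.

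The 4 with the same direction were Polr3k, Tep1, Nsmce4a and LOC110342230. Polr3k was at 19.8, 9.62, 35.996 and 25.1 in WT MII oocytes and at 4.07, 3.28, 1.12 and 7.10 in Piwil3-/- MII oocytes (log2 difference -2.29, SE 0.49; limma adjusted p = 0.0182). Tep1 was at 2.70, 2.84, 2.80 and 0.896 in WT and at 12.8, 9.39, 9.82 and 13.8 in mutants (1.95, SE 0.43; adjusted p = 0.0225). Nsmce4a was at 464, 503, 781 and 559 in WT and at 1181, 1080, 949 and 857 in mutants (0.84, SE 0.17; adjusted p = 0.0135). In each the groups did not overlap, as in GV oocytes. LOC110342230 was at 22.9 to 54.4 in WT and 7.09 to 21.5 in mutants (-1.56; adjusted p = 0.0338). In the second set of WT MII oocytes of the series (3 libraries), Polr3k was at 47.8 to 102 and Tep1 at 2.05 to 4.73, on the WT side of the mutant range in both. For Polr3k the second set lay above the first WT set without overlap, while for Tep1 the sets overlapped. WT sets thus also differed from each other. With 1 MII library left out, 0 to 3 of the genes changed in GV passed in the same direction, and 0 did without WT library 1. In the second WT set Nsmce4a was at 249.5 to 475 and LOC110342230 at 47.5 to 66.7.

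Rxylt1 moved in opposite directions at the 2 stages. It was at 197, 183, 206 and 205 in WT MII oocytes and at 59.6, 76.2, 54.0 and 61.4 in Piwil3-/- MII oocytes (log2 difference -1.65, SE 0.19; limma adjusted p = 1.5e-04), after a rise of 1.78 in GV oocytes. The genotype difference thus differed between GV and MII oocytes by 3.43 on the log2 scale (SE 0.33; limma interaction adjusted p = 1.2e-04). The values of WT oocytes were thus higher at MII than at GV, and those of mutants lower. The total of all values was also far lower at MII, at 502825 to 562304 in WT and 519721 to 688865 in mutant libraries. In GV libraries it was 2421960 or more. Whether Rxylt1 in mutants fell more than this total was not tested. In the second set of WT MII oocytes Rxylt1 was at 145, 262 and 313, also above all mutant MII libraries. LOC110340610 also differed between the stages, with 3595 to 5125 in WT and 4639 to 6603 in mutant MII libraries (interaction -1.32, SE 0.18; adjusted p = 0.00183), a call lost in the fit of all oocyte and embryo groups (0.165). LOC121136468, listed at 0 in WT GV oocytes, was at 0.797 to 4.003 in WT and 0.104 to 2.34 in mutant MII oocytes (interaction 4.73, SE 0.65; adjusted p = 0.00183). The genes named here were chosen for their GV change. The interaction uses the same GV values, so it is no independent evidence for them. In the 13534 genes of the GV test and the 7502 of the MII test, 7480 were shared, and the interaction passed for 58 (0.775%). With equal totals within each stage it passed for 91 of 7495 (1.21%).

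**Figure D5:**
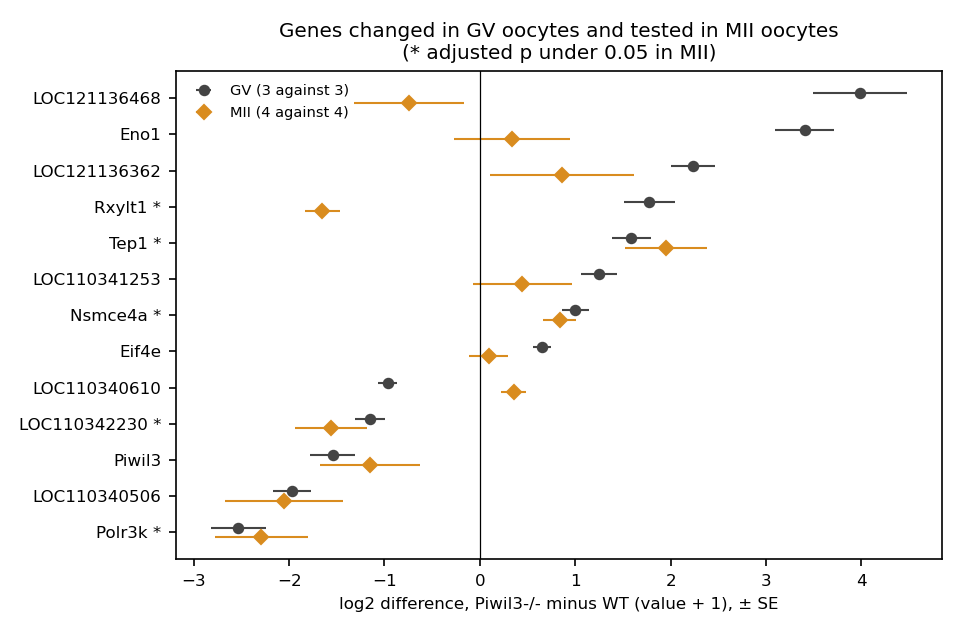
Log2 difference between Piwil3-/- and WT oocytes with its SE at GV (grey circles, 3 against 3 libraries) and MII (orange diamonds, 4 against 4) for the 13 genes changed in GV and tested in MII, with a star where MII passed. Rxylt1 lies at 1.78 in GV and -1.65 in MII, while Polr3k, Tep1, Nsmce4a and LOC110342230 lie on the same side of 0 at both stages.

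For the others no MII change was detected. Eif4e was at 91.0 to 117 in WT and 92.0 to 148 in mutant MII oocytes (log2 difference 0.09, SE 0.21), and Eno1 at 2.18 to 15.8 and 1.80 to 15.8. Piwil3 was at 2.06 to 4.62 in WT and 0.306 to 1.17 in mutants, without overlap, and did not pass (-1.15, SE 0.53; limma adjusted p = 0.263). LOC110340506 was at 18.2 to 27.4 in WT and 0 to 10.8 in mutants (-2.05, SE 0.61; adjusted p = 0.0824). In the other direction, 242 genes changed in MII oocytes, 157 higher (2.09%) and 85 lower (1.13%), which with equal totals became 133 higher (1.77%) and 170 lower (2.26%), and 241 of them were tested in GV oocytes, where 5 changed. Of the 241, 57.3% had the same sign of difference in GV, beside 54.1% of the 7480 genes tested at both stages. The 157 genes higher in mutant MII oocytes had a median log2 difference of 1.34 there and of 0.04 in GV, and the 85 lower ones -1.37 and -0.06. Of the mitochondrially encoded genes tested, 10 of 11 were higher in mutant MII oocytes (median 2.09). The difference between the stages passed for 4 of the 11: ND1 (interaction -1.42; limma adjusted p = 0.0117), ND4 (-2.02), ATP6 (-2.01) and COX1 (-2.05), where it passed for 0.775% of all genes. In the fit of all groups none of the 4 passed (adjusted p between 0.0779 and 0.316).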

How the data were processed

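Single GV oocytes were sequenced by Smart-seq2, which does not keep strand. Per the labels and methods, the authors trimmed reads with Trim Galore, aligned them to BCM_Maur_2.0 with STAR, keeping reads that map to several places, and counted them per gene with featureCounts. The deposited values are a ratio, fragments per kilobase for each 10000 ERCC reads, and depth was judged here only from the steps between low values.

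Genes were matched by NCBI gene ID. Values were analysed as log2(value + 1), as deposited and with the libraries set to equal totals. Genes whose value passed 2 in 40% or more of the compared libraries were tested with limma 3.58.1 (R 4.3.3; trended prior variance, Benjamini-Hochberg adjustment over all genes tested), fitted on the GV libraries alone, on the MII libraries alone, or on both for the interaction. Fold differences on this scale understate the change of low genes. Scripts were tested on simulated data. Alternatives were the pseudocount, the filter, the scaling, the groups fitted, the prior, the thresholds, the replicate block in MII and each library left out. Of the oocyte and embryo table, 43 columns were mapped to samples. Columns of other stages entered only alternative fits.

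Named genes were the PIWI family, all called genes, changed genes, and of each list the changed or 2 most abundant members, with fixed oocyte and piRNA genes. Amhr2, Sema4d, Aldoa, Maf1, S100a16, Glis1, Rhot1, ND4, ND5, ATP6, COX1, COX3, ATP8 and the genes from Tcl1a to Glrx5 lie outside this rule and were chosen after their values were seen, as were markers named for being at 0. The members and lists were chosen with earlier results of these data known.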

Additional observations from a re-analysis of the deposited data

Results flagged for a closer look

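In 2 of the 36 groups of 4 MII libraries looked at, 1 library lay far from the other 3. For Tep1 in WT MII oocytes, library 5 was at 0.896 and the others at 2.70 to 2.84. On the log2(value + 1) scale this was a gap of 0.947 of the group's range. For LOC110340506 in Piwil3-/- MII oocytes, library 3 was at 0 and the others at 7.33 to 10.8. On the same log2 scale this was a gap of 0.858 of the range, and it is smaller on the values themselves. Chance alone would place about 1 in 20 groups past the limit used.

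For 7 of 63 genes looked at, the genotype difference in GV oocytes differed from that in MII oocytes by the interaction test in limma, which passed for 0.775% of all genes. Many of the 63 were chosen for their GV change. The GV minus MII difference on the log2 scale was 4.90 for Bcl3, 4.73 for LOC121136468 and 3.43 for Rxylt1. It was -1.42 for ND1, -1.32 for LOC110340610, -0.89 for LOC121139449 and -0.76 for LOC110339651, the last 3 genes being members of the cluster between Tcl1a and Glrx5. In the fit of all oocyte and embryo groups these 4 did not pass (adjusted p = 0.316, 0.165, 0.827 and 0.476), while Bcl3, LOC121136468 and Rxylt1 did.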

How the results depend on the processing

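None of the 28 changed genes changed sign under the alternatives run. Several values that did not pass did so with 1 library left out, among them Piwil2 (-0.59 to 0.13), Zp1 (-0.15 to 0.29) and the GV total (-4.98% to 0.45%), and the MII changes turned from mostly higher (157 of 242) to mostly lower (170 of 303) with equal totals. Of the 28 changed genes, 7 passed an adjusted p of 0.05 in all 11 alternatives run on single genes (Plxnb2, Eno1, LOC110340977, LOC110341578, LOC101827565, LOC110340463 and LOC121133695), and 13 passed in fewer than 6 (Piwil3, Rxylt1, Tep1, Nsmce4a, Eif4e, S100a1, LOC121137851, LOC121138973, LOC110341579, LOC110341253, LOC121144031, LOC121135767 and LOC110342230). The 11 genes called as deposited became 2 with a pseudocount of 0.1, 3 with no filter, 5 with no trend in the prior, 39 in a fit of GV and MII groups together (8 shared), 115 in a fit of all WT and Piwil3-/- oocyte and embryo groups (9 shared), 28 at an adjusted p under 0.05 with no fold limit and 26 with a 2-fold limit. With equal totals the corresponding counts were 5 with a pseudocount of 0.1, 3 with no filter, 5 with no trend, 35 with no fold limit and 30 with a 2-fold limit, while the fit of GV and MII together called 12 and the fit of all groups 9. Leaving out 1 library gave 0 to 5 calls as deposited and 0 to 9 with equal totals. The Piwil3 difference was -1.59 with a pseudocount of 0.1 (limma adjusted p = 0.0609) and -1.64 to -1.49 with 1 library left out, none of which passed. The number of GV changes found again in MII was 0 to 3 with 1 MII library left out. The 58 genes whose genotype difference differed between the stages became 91 with equal totals and 29 in the fit of all groups. The causes were not tested.

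The GV groups share 1 replicate number, so no paired analysis was possible for them. In MII, with a replicate block over numbers 1, 2 and 5, 1 of the genes changed in GV passed in the same direction. The same libraries without the block also gave 1. Deviations of same-numbered libraries correlated at 0.01 to 0.08, so the numbers were not taken to pair them.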

Other observations

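A pair of genes that narrowly missed the threshold in GV oocytes passed in MII oocytes, and both were chosen after their values were seen. Llph was at 24.9, 31.4 and 33.3 in WT and at 128, 112 and 67.9 in Piwil3-/- GV oocytes (log2 difference 1.71, SE 0.27; limma adjusted p = 0.0528), with no overlap of the groups. In MII oocytes Llph was at 0.344 to 1.65 in WT and 19.2 to 45.9 in mutants (4.0005, SE 0.44; adjusted p = 1.5e-04). All WT MII values were under the filter value of 2, so Llph entered the MII test through the mutant libraries alone. In WT MII libraries 1 read in a gene of 1 kb was worth 0.224 to 0.522, so these WT values are near the floor.

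Orai1, which encodes the pore of store-operated calcium channels, was higher than WT in value in mutant GV oocytes and lower than WT in mutant MII oocytes. It was at 166, 178 and 169 in WT GV oocytes and at 266, 344 and 377 in mutant GV oocytes (log2 difference 0.93, SE 0.16; limma adjusted p = 0.0736). In MII oocytes Orai1 was at 28.9 to 54.8 in WT and 6.62 to 18.6 in mutants (-1.75, SE 0.36; adjusted p = 0.0145).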
